A study of Mus musculus with 6 samples.

Results

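Translation factors are the soluble proteins that load the ribosome onto a messenger RNA, find its start codon and then move it along the message. They were followed here in primary mouse macrophages cultured from bone marrow, as the 59 genes of the deposited table whose names begin with Eif1 to Eif6 or with Eef1 or Eef2. Names of the eIF2 kinases, of both Eif2s3 copies and of the pseudogene Eif4a-ps4 were left out, which removed 7 of 66 rows. The 59 are 48 initiation factor genes and 11 elongation factor genes among 14005 listed genes, and all 59 passed the filter on low values (a mean of at least 10 normalized counts).

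PolyA-selected RNA was sequenced in 3 libraries of wild-type C57BL/6J cells and 3 whose label is Txn1 KO (the KO-labelled group), on the same strain background. The label of that genotype gives the allele Txn1tm1.1Ees/J together with B6.129P2-Lyz2tm1(cre)lfo/J. Txn1 encodes the cytosolic disulfide reductase thioredoxin-1, and the second allele expresses Cre recombinase from the Lyz2 locus of myeloid cells, which the insertion interrupts. Each group was a pool of male and female material, ages were not stated, and a control with Cre alone was not analysed here, so effects of Cre, of the Lyz2 insertion and of the Txn1 allele cannot be told apart. It is not stated whether the replicates are separate animals, cultures or preparations, so each p-value reflects only how these samples vary, and that variation may be technical. The stated aim of the series was the effect of thioredoxin-1 loss on NLRP1 inflammasome genes; the translation factors were measured in the same libraries.

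The listed genes held 22508616 to 38726953 reads per library. Lyz2 fell from 364408 ± 3550 to 3118 ± 1281 normalized counts (SD, n = 3 each), while Txn1, summed over the whole gene, had 12580 ± 532 and 12349 ± 367 (limma adjusted p = 0.686), so its level did not tell the groups apart. Macrophage markers were present in all libraries (all 8 fixed markers listed, summed level 148306 to 152238), although single markers moved, with 4 of their 9 rows higher and 2 lower. None of the 5 fixed markers of T and B cells was listed, and the 3 neutrophil markers listed of 5 summed to 220.7 to 255, with S100a9 lower. Of 8 proliferation markers 1 was higher (Mki67, log2 0.27) and 0 lower. Wild-type replicate 1 and KO-labelled replicate 3 held liver transcripts: Alb, the albumin gene, had 642.9 and 580 normalized counts there and 0.838 or less in each of the other 4. Fabp1 (102.9 and 99.6) and Ttr (74.4 and 59.2) had the same pattern, with 0.838 or less elsewhere. Apoa2 (13.2 to 26.5) and Trf (1398 to 1521) did not set these 2 libraries apart. The 5 liver markers listed of 9 summed to 2326 and 2163 in these 2 libraries and to 1411 to 1548 in the others, and most of each sum was Trf. All 8 fixed stromal markers were listed, and their summed level was 2722 to 3040 in wild type and 1238 to 2185 in the KO-labelled libraries, with 6 of 8 lower and a median log2 change of -0.99. Their part in the differences described here, and that of the liver transcripts, was not tested. In bulk RNA, fewer cells of a type and less RNA per cell cannot be told apart.

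Initiation starts when eIF2, bound to GTP and the initiator tRNA, joins eIF1, eIF1A, eIF3 and eIF5 on the small ribosomal subunit. The cap-binding complex eIF4F, made of the cap binder eIF4E, the helicase eIF4A and the scaffold eIF4G, brings that subunit to the message, and eIF5B then joins the large subunit. During elongation eEF1A delivers each aminoacyl-tRNA, the eEF1B complex recharges eEF1A with GTP, and eEF2 moves the ribosome forward. Many messages of ribosomal proteins and elongation factors begin with a C followed by a run of pyrimidines, the 5′ terminal oligopyrimidine (TOP) motif, through which the TOR kinase and the protein LARP1 control their translation and stability.

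Of the 59 genes, 13 were lower and 2 higher in the KO-labelled libraries at a limma adjusted p under 0.05 (Benjamini-Hochberg over 13977 genes, two-sided). The share called lower was 22% among the translation factors and 9.97% over all tested genes. Over all tested genes 11.5% were called higher and 21.5% either way. The genes that fell were Eef1a1, Eef1a2, Eef1b2, Eef1g, Eef2, Eif2b2, Eif3c, Eif3e, Eif3f, Eif3h, Eif4b, Eif4e2 and Eif5, and those that rose were Eif4g1 and Eif4g3. The changes were small: falls ran from 7.23% to 18.3% of the wild-type mean, and 0 of the 59 genes passed with a log2 change of 0.5 or more. Below 0 stood 47 of the 59 log2 changes, with a median of -0.06, against 51% of all tested genes and a median of -0.005.

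No overlap between the groups was seen in 14 of the 15 called genes and in 5 of the other 44. Over the 59 genes that makes 32.2%, close to the 36.2% of all tested genes. Without the 2 libraries that held liver transcripts, 13 genes were lower and 3 higher, and 13 of the 15 calls were shared. The authors' deposited table calls the same 15 genes in the same directions, and 19.2% of all its genes. A limma fit with no trend in its prior variance called 4 of the 59, Eef1a1, Eef2, Eef1g and Eif4e2. That fit also called fewer of the 13977 tested genes, 923 higher and 602 lower, against 1607 and 1394 in the main fit.

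**Figure D1:**
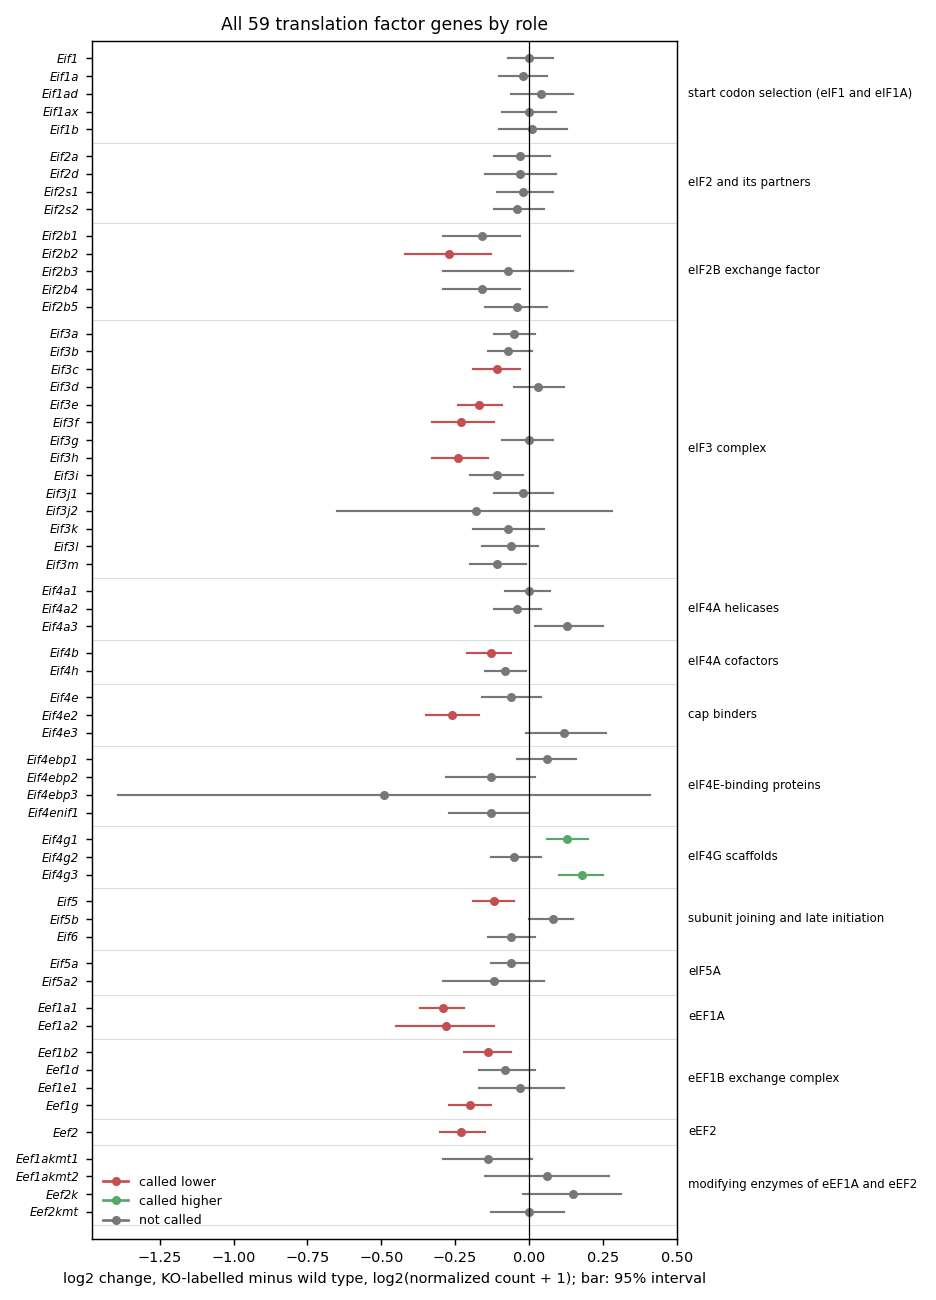
Log2 change between the KO-labelled libraries and wild type for each of the 59 genes, grouped by role. Points are limma estimates on log2(normalized count + 1) and bars are 95% intervals; red marks the 13 genes called lower, green the 2 called higher and grey the others. Of the 13 falls, 5 are elongation factors and 4 are eIF3 subunits, and the intervals of Eif4ebp3 and Eif3j2, the genes with the lowest counts, are the widest.

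The bases around the annotated start are shown for the called genes that have an entry in the RefSeq promoter table (GRCm38.p6), because a TOP motif, where a message has one, is at its first base. Each line runs 5′ to 3′ from 30 bases before to 28 bases after the annotated start. Capitals mark every run of a C followed by at least 6 further pyrimidines that a search of the given strand found between 30 bases before and 50 bases after that start.
Eef1a1, chr9:78481697-78481754, minus strand: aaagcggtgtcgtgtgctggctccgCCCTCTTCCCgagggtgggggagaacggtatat
Eef2, chr10:81176601-81176658, plus strand: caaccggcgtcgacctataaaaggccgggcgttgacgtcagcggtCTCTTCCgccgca
Eef1a2, chr2:181156988-181157045, minus strand: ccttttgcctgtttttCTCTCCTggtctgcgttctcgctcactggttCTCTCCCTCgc
Eef1b2, chr1:63176801-63176858, plus strand: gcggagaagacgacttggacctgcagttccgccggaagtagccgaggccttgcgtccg
Eif3f, chr7:108934385-108934442, plus strand: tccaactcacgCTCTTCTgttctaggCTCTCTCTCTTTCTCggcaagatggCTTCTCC
Eif3c, chr7:126566339-126566396, minus strand: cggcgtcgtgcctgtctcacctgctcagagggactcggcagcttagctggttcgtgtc
Eif4b, chr15:102073743-102073800, plus strand: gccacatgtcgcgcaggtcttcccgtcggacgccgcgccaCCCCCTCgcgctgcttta
Eif2b2, chr12:85219451-85219508, plus strand: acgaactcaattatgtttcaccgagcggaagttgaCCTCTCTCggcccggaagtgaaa
Eif5, chr12:111538071-111538128, plus strand: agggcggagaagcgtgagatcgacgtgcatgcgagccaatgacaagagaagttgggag
Eif4e2, chr1:87213881-87213938, plus strand: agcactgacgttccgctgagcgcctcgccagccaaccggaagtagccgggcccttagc
Eif4g1, chr16:20672697-20672754, plus strand: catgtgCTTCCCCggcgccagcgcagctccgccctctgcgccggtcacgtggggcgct
Eif4g3, chr4:137993425-137993482, plus strand: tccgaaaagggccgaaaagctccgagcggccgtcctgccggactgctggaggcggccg

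Such a run stood in 6 of the 10 promoters of genes called lower, in 1 of the 2 called higher and in 10 of 33 not called (30.3%). Over all tested genes with an entry it stood in 31.9% of 10088. Tested genes with the run were called lower in 11.7% of cases and those without it in 10.5%. In Eif3f the longest run began just before the annotated start, and in Eef1a1 the run crossed it. The Eef1a1 run lies 5′ of a TATA-like stretch at the end of the printed bases, so it need not be in the message. The start that macrophages use was not measured here, and a run near an annotated start is a description of letters only. Of the 59 genes 45 had an entry; Eef1g, Eif3e and Eif3h were among those without.

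The E-box CACGTG, searched on both strands over 300 bases, stood in 10 of 45 promoters of the 59 genes (22.2%) and in 10.2% of tested genes. Among them was that of Eif4g1, where it lies within the bases printed above. The antioxidant response element TGACNNNGC stood in 9 of 45 (20%) against 15.2% of tested genes, and the C/EBP-ATF response element TGATGNAAN in 0 of 45 against 2.25%.

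Elongation factors held the largest falls in reads. Eef1a1, which encodes the main eEF1A, had 173857, 172182 and 177044 normalized counts in wild type and 146153, 143920 and 137538 in the KO-labelled libraries. The gene (ENSMUSG00000037742) lies on the minus strand at chr9:78478449-78489151 (GRCm38). Every KO-labelled library lay below every wild-type library, at 18.3% less on average (log2 -0.29 ± 0.035, SE; limma adjusted p = 1.05e-05). Eef2, the translocase (ENSMUSG00000034994, plus strand, chr10:81176631-81182498), had 74729, 70924 and 74987 against 63327, 64112 and 61180, again without overlap (log2 -0.23 ± 0.034, limma adjusted p = 0.000112). Eef1g, the gamma subunit of eEF1B, had 11938, 11701 and 12019 in wild type against 10323, 10474 and 10236 in the other group (log2 -0.20 ± 0.031, limma adjusted p = 0.000149). These 3 genes kept their calls in each of the 18 alternative settings that were run, as did Eif4e2.

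Eef1b2 encodes the subunit that exchanges the nucleotide on eEF1A. It had 7838, 7529 and 7562 normalized counts in wild type and 7090, 6639 and 7086 in the KO-labelled libraries, and fell by 9.22% (log2 -0.14, limma adjusted p = 0.0102). That call was lost without KO-labelled replicate 2 (log2 -0.11, limma adjusted p = 0.0684). Eef1a2, the second eEF1A gene, had 1334, 1102 and 1274 against 1004, 1124 and 916.5, with the highest KO-labelled library above the lowest wild-type one. Its fall (log2 -0.28, limma adjusted p = 0.0119) did not pass without wild-type replicate 1 (-0.23, limma adjusted p = 0.0654), without wild-type replicate 3 (-0.26, 0.0684) or without both libraries with liver transcripts (-0.16, 0.105). Eef1d, the delta subunit of eEF1B, did not pass (log2 -0.08, limma adjusted p = 0.263). Nor did Eef1e1, named as an elongation factor but known as a member of the tRNA synthetase complex (-0.03, 0.833).

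Enzymes that modify the elongation factors did not pass either. Eef2k, the kinase that inhibits eEF2, had 522.7, 518.3 and 462 normalized counts in wild type and 511.2, 575.1 and 576 in the KO-labelled libraries, with overlap between the groups (log2 0.15 ± 0.076, 95% interval -0.02 to 0.31, limma adjusted p = 0.203). The methyltransferase genes Eef2kmt, Eef1akmt1 and Eef1akmt2 had log2 differences of 0.00, -0.14 and 0.06.

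**Figure D2:**
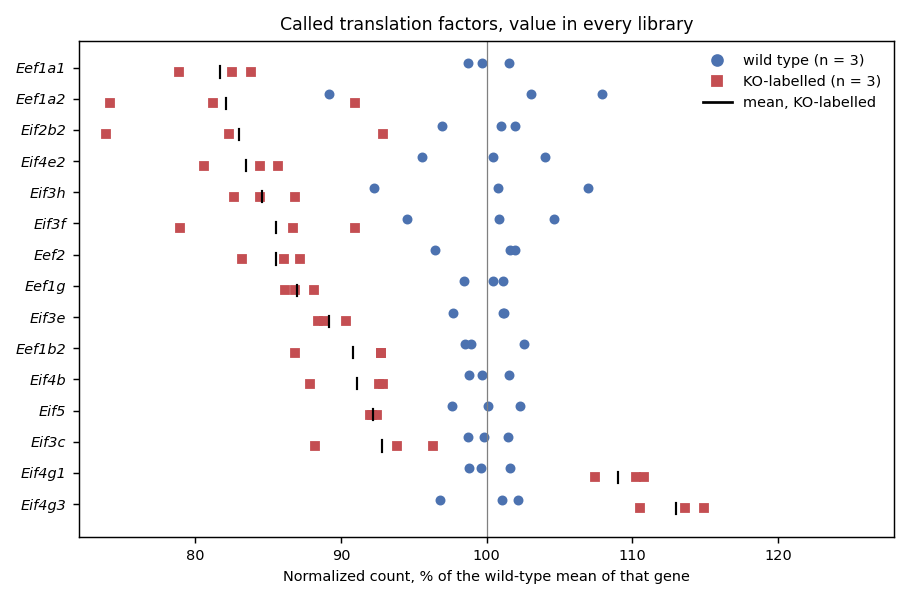
Normalized count of each called gene in every library as a percent of that gene's wild-type mean (x axis), with genes ordered by their log2 change. Blue circles are the 3 wild-type libraries, red squares the 3 KO-labelled libraries and black ticks their mean. Eef1a2 is the called gene in which the groups overlap.

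The eIF3 complex, which keeps the small subunit open for the message, fell in part. Of 14 measured genes 4 were lower and 0 higher, against 9.97% of all tested genes called lower. The 4 belong to the 8 subunits of its PCI-MPN core (a, c, e, f, h, k, l and m). All 8 had a log2 change below 0 (median -0.11), but so did the 6 other subunits except Eif3d (median of the 6, -0.04). Eif3h had 7341, 6329 and 6916 normalized counts in wild type and 5957, 5794 and 5673 in the KO-labelled libraries, without overlap (log2 -0.24 ± 0.046, limma adjusted p = 0.000962). Eif3f had 5386, 4867 and 5193 against 4463, 4684 and 4066, its highest KO-labelled value just under the lowest of wild type (log2 -0.23, limma adjusted p = 0.00289). Eif3e had 4149, 4297 and 4300 against 3755, 3838 and 3772, and fell by 10.8% with little spread inside either group (limma adjusted p = 0.00277).

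Eif3c was at the threshold, with 6262, 6195 and 6366 normalized counts in wild type and 5887, 6042 and 5534 in the KO-labelled libraries (log2 -0.11, limma adjusted p = 0.0488). Its adjusted p was 0.0595 with edgeR and 0.0835, 0.0728 and 0.174 without wild-type replicate 1, 2 or 3. It was 0.0859 and 0.177 without KO-labelled replicate 1 or 3, and 0.171 without both libraries with liver transcripts. The other core subunits had log2 differences of -0.05 (Eif3a), -0.07 (Eif3k), -0.06 (Eif3l) and -0.11 (Eif3m), none past the test. Of the 6 subunits outside the core 0 passed, among them Eif3b (-0.07), Eif3d (0.03) and Eif3g (-0.004). Eif3i, also outside it, had -0.11 and passed without KO-labelled replicate 1 (-0.14, limma adjusted p = 0.0489). Whether core and other subunits differ was not tested. Eif3j1 (-0.02) and Eif3j2 (-0.18) did not pass. They are 99.4% identical over 2379 bases and their reads may be split, so both values are uncertain.

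Start codon selection and eIF2 itself showed no called change. The 5 genes whose names begin with Eif1 (Eif1, Eif1b, Eif1a, Eif1ax and Eif1ad) had log2 differences between -0.02 and 0.04. Eif1ad was grouped here by its name only. Eif2s1, the alpha subunit whose phosphorylation slows initiation, had 2183, 2118 and 2057 normalized counts in wild type and 2128, 2137 and 2017 in the KO-labelled libraries, which overlap (log2 -0.02, 95% interval -0.11 to 0.08). Eif2s2, the beta subunit, had -0.04 (95% interval -0.12 to 0.05), and the alternative tRNA-delivery factors Eif2a and Eif2d had -0.03 each.

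The exchange factor eIF2B, which reloads eIF2 with GTP, had 1 called gene of 5. That share is near the 21.5% of all tested genes called either way, so it is not a result about eIF2B as a whole. Eif2b2, the beta subunit, had 1204, 1145 and 1193 normalized counts in wild type and 1097, 972.1 and 872.1 in the KO-labelled libraries, without overlap but with a wide spread in the second group (log2 -0.27 ± 0.069, limma adjusted p = 0.00795). As a percent of the catalytic subunit Eif2b5 in the same library, Eif2b2 counts were 91.1, 89.3 and 87.3 in wild type against 80.8, 78.6 and 69.4 in the other group. Eif2b1 and Eif2b4 missed the threshold at a log2 of -0.16 each (limma adjusted p = 0.077 and 0.0721). They passed without wild-type replicate 2 (-0.21, 0.0384, and -0.22, 0.0278), and Eif2b4 also without KO-labelled replicate 3 (-0.21, 0.0227) or without both libraries with liver transcripts (-0.185, 0.0445). Eif2b3 and Eif2b5 had -0.07 and -0.04.

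Among the 3 eIF4G scaffold genes 2 rose and 0 fell, against 11.5% of all tested genes called higher and 9.97% called lower. Eif4g1, the main eIF4G, had 10778, 10869 and 11090 normalized counts in wild type and 12029, 12090 and 11726 in the KO-labelled libraries. The gene (ENSMUSG00000045983) lies on the plus strand at chr16:20668313-20692884. All 3 KO-labelled libraries were higher than every wild-type library, by 9.49% on average (log2 0.13 ± 0.032, limma adjusted p = 0.00634). Its paralog Eif4g3 (ENSMUSG00000028760, plus strand, chr4:137993022-138208508) had 4316, 4270 and 4089 against 4671, 4801 and 4856, a rise of 13% (log2 0.18 ± 0.037, limma adjusted p = 0.00197). Eif4g2, which lacks the eIF4E-binding site, did not pass (log2 -0.05, limma adjusted p = 0.454), but was called lower without both libraries with liver transcripts (-0.10, 0.0383).

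Eif4e2, best known as a repressing cap binder (ENSMUSG00000026254, plus strand, chr1:87213914-87240488), was the cap binder that fell. It had 2781, 2686 and 2556 normalized counts in wild type and 2258, 2290 and 2155 in the KO-labelled libraries, without overlap (log2 -0.26 ± 0.044, limma adjusted p = 0.000336). Eif4e, the cap binder of eIF4F, had 2034, 1877 and 1985 against 1905, 1936 and 1809, which overlap (log2 -0.06, limma adjusted p = 0.399). As a percent of Eif4e counts in the same library, Eif4e2 stood at 137, 143 and 129 in wild type and at 119, 118 and 119 in the other group. Eif4e3 differed by 0.12 on the log2 scale (limma adjusted p = 0.18).

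Among the helicase genes Eif4a1 had 25616, 25317 and 25519 normalized counts in wild type and 26100, 26192 and 24149 in the KO-labelled libraries (95% interval of the log2 difference -0.08 to 0.07). Eif4a2 differed by -0.04. Eif4a3, a helicase of the exon junction complex rather than of initiation, had 0.13 (limma adjusted p = 0.0896) and passed without wild-type replicate 1 (0.19, 0.0126) or without both libraries with liver transcripts (0.22, 0.000955). Eif4b, which stimulates the helicase, fell from 10923, 11229 and 11017 to 10271, 10235 and 9715 (log2 -0.13 ± 0.034, limma adjusted p = 0.00786). Eif4h, its shorter relative, had -0.08 (limma adjusted p = 0.109).

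The eIF4E-binding proteins, which block eIF4E until TOR phosphorylates them, did not pass. Eif4ebp1 had 2021, 2065 and 1853 normalized counts in wild type and 2131, 1991 and 2055 in the KO-labelled libraries (log2 0.06, limma adjusted p = 0.456). Eif4ebp2 differed by -0.13 on the log2 scale (limma adjusted p = 0.229) and passed without KO-labelled replicate 2 (-0.22, 0.024). Eif4ebp3 was near the floor of detection at 14.4 ± 3.19 and 9.87 ± 1.54 normalized counts, and 67.3% of its exonic bases are shared with another annotated gene. Eif4enif1, a transporter of eIF4E, had -0.13 (limma adjusted p = 0.157).

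Of the late initiation factors Eif5, which triggers GTP hydrolysis on eIF2, fell by 7.83%. It had 6819, 6647 and 6968 normalized counts in wild type and 6298, 6273 and 6263 in the KO-labelled libraries (log2 -0.12 ± 0.033, limma adjusted p = 0.0182). It did not pass without wild-type replicate 3 (-0.10, limma adjusted p = 0.105), without KO-labelled replicate 1 (-0.12, 0.0515) and without KO-labelled replicate 2 (-0.12, 0.0546). Eif5b had 0.08 (limma adjusted p = 0.158) and Eif6, which keeps the subunits apart, -0.06 (0.287). Eif5a, the carrier of the hypusine residue, had 19121, 19093 and 19108 in wild type against 18111, 18001 and 18735 in the other group, without overlap but short of the threshold (log2 -0.06, limma adjusted p = 0.164). Its paralog Eif5a2 did not pass either (-0.12, limma adjusted p = 0.328).

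Per kilobase of transcript the order of levels was dominated by elongation. In wild type Eef1a1 stood at 97191 normalized counts per kb and Eef2 at 23809, followed by Eif4a1 (14365) and Eif5a (13297). Eef1g (6377), Eif1 (6123), Eif3h (5299), Eef1b2 (3942), Eif3k (3680) and Eif4h (3230) completed the first 10. Of these 10, 5 were called lower and 0 higher, against 9.97% and 11.5% of all tested genes. Whether level and change are linked was not tested. All lengths rest on 1 chosen transcript per gene, so the order is loose, above all between neighbours such as Eef1g and Eif1. In the KO-labelled libraries the levels of Eef1a1 and Eef2 per kb were 79452 and 20354.

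The 59 genes together took 1.66%, 1.64% and 1.67% of the reads in wild type and 1.51%, 1.52% and 1.45% in the KO-labelled libraries. Eef1a1 alone took 0.574%, 0.572% and 0.587%, against 0.486%, 0.483% and 0.454%. The other 58 genes had 1.07% to 1.09% in wild type and 0.994% to 1.03% in the other group, so the lower share was not that of Eef1a1 alone.

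**Figure D3:**
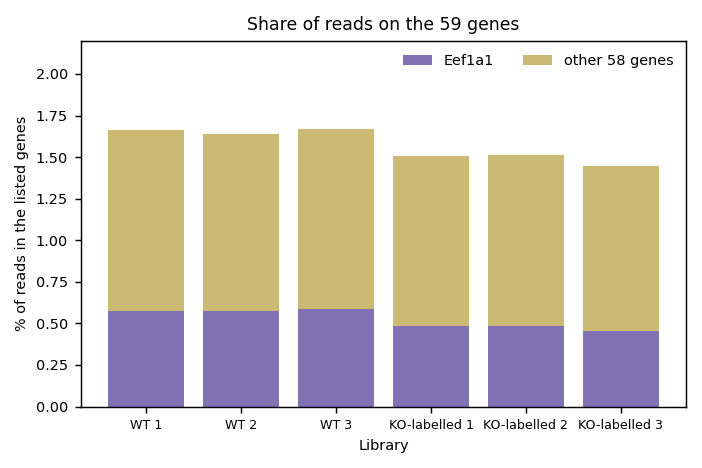
Share of all reads in the listed genes (y axis, %) that fell on Eef1a1 (purple) and on the other 58 genes (yellow) in each of the 6 libraries, with no error bars since each bar is 1 library. The 3 KO-labelled libraries, at 1.45% to 1.52% in sum, lie below the 3 wild-type libraries at 1.64% to 1.67%.

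Among translation factors, vertebrate TOP messages include those of Eef1a1, Eef1b2, Eef1d, Eef1g, Eef2, Eif3e, Eif3f, Eif3h and Eif4b. This set of 9 was written from background knowledge with the results known, and carries no test. It need not be complete, and its choice could follow the calls. The contrast with the other 50 genes is therefore a description only. Of the 9, 8 were called lower and 0 higher, with a median log2 change of -0.20, and Eef1d was the one not called. Of the other 50 genes 5 were lower and 2 higher, with a median of -0.05. Of 81 cytosolic ribosomal protein genes, the largest class of TOP messages and also chosen after values were seen, 51 were lower and 1 higher (median log2 -0.14). These counts stand beside 9.97% of all tested genes called lower and 11.5% called higher.

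**Figure D4:**
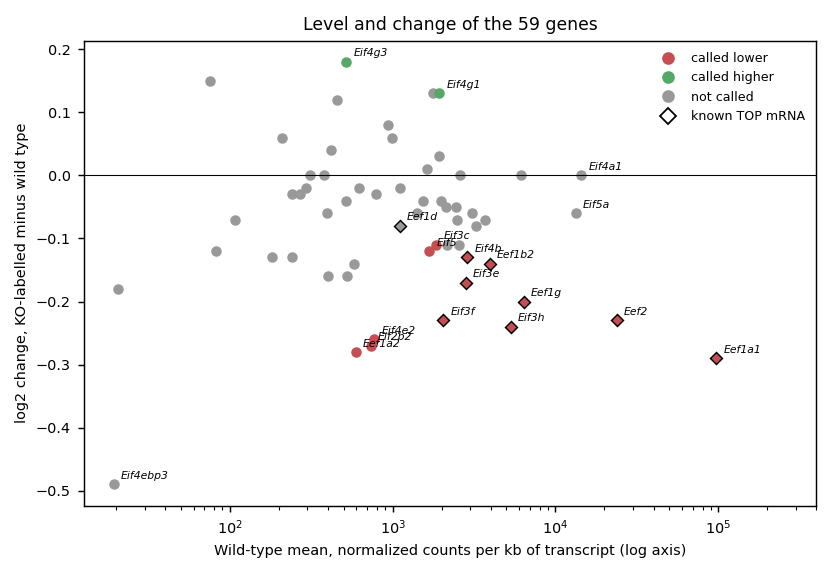
Wild-type level of each of the 59 genes per kb of transcript (x axis, log scale) against its log2 change (y axis). Red marks genes called lower, green higher and grey not called, and outlined diamonds are the 9 genes of the TOP set, which need not be complete. All 9 diamonds lie below 0, from -0.08 (Eef1d) to -0.29 (Eef1a1), as do 47 of all 59 genes. The set of 9 was written with the results known. Eif4a1 and Eif5a lie at 0.00 and -0.06.

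Of 24 tested partners of the cap, the poly(A) tail and the helicases, 4 were lower and 1 higher, with a median log2 change of -0.03. That share is near the 21.5% of all tested genes called either way, so the genes are given for their own values and not as a result about the list. Rack1, a scaffold protein of the small ribosomal subunit, had 20603, 19133 and 19804 normalized counts in wild type and 17342, 16469 and 15996 in the KO-labelled libraries (log2 -0.26, limma adjusted p = 6.83e-05). Pabpc1, the main poly(A)-binding protein, fell by 0.14 (log2; limma adjusted p = 0.00354) and Mknk2, a kinase of eIF4E, by 0.19 (0.000762). Larp1, the TOP-binding protein itself, had 4434, 4550 and 4480 against 4012, 4136 and 3981 (log2 -0.15, limma adjusted p = 0.00531), without overlap. Larp4, another La-related protein, rose by 0.15 (limma adjusted p = 0.0175).

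In the list of TOR signalling 3 of 27 genes rose and 4 fell (median log2 -0.01), again near the 21.5% of all tested genes called either way. Lamtor1, an anchor of TOR at the lysosome, and Rptor, the subunit of TORC1 that binds substrates, changed by -0.19 and -0.21 (limma adjusted p = 0.000752 and 0.0138). Sesn2, a stress-induced inhibitor of TORC1, rose by 0.24 (limma adjusted p = 0.0253) and Lamtor3 by 0.12 (0.031). The kinase gene Mtor did not pass (-0.06, limma adjusted p = 0.481).

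Among 12 regulators of eIF2 phosphorylation 4 rose and 2 fell, with a median log2 change of 0.12. The shares over all tested genes were 11.5% called higher and 9.97% called lower. Ppp1r15a (GADD34), which directs a phosphatase to eIF2, had 1275, 1421 and 1380 normalized counts in wild type and 1771, 1850 and 1853 in the KO-labelled libraries, without overlap (log2 0.43, limma adjusted p = 7.35e-06). Impact, an inhibitor of the kinase GCN2, rose by 0.34 (limma adjusted p = 1.92e-05). Eif2ak2, the interferon-induced kinase PKR, fell by 0.24 (limma adjusted p = 0.000982) and Ppp1ca, a phosphatase subunit, by 0.22 (0.0016).

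Other steps of protein synthesis were followed in 4 lists, to be read against the 11.5% of all tested genes called higher and the 9.97% called lower. In termination and recycling 2 of 9 rose and 1 fell: Pelo, which rescues stalled ribosomes, by 0.38 (limma adjusted p = 0.000596), Gspt2, a release factor, by 0.45 (0.0245), and Denr, a recycling factor, by -0.22 (0.00268). Among enzymes of hypusine, polyamine and diphthamide synthesis, which supply the modifications of eIF5A and eEF2, 3 of 13 fell and 0 rose. The largest was Odc1, ornithine decarboxylase, with 1336, 1442 and 1386 normalized counts in wild type and 908.8, 928.1 and 830.4 in the KO-labelled libraries (log2 -0.64, limma adjusted p = 2.2e-07). Sms (-0.13) and Dph5 (-0.27) also passed. Of 14 mitochondrial translation factors 1 rose, Gfm1 (0.17, limma adjusted p = 0.0191), and of 7 genes of selenocysteine insertion 1 rose, Sephs2 (0.37, limma adjusted p = 2.41e-05).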

How the data were processed

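RNA of 6 mouse BMDM libraries was analysed from 1 deposited table. The submitters' processing notes name STAR 2.5.2b, Trimmomatic 0.36, bcl2fastq 2.20, DESeq2 and the build GRCm38. Not given in the sources used here are the counter, the annotation and whether strand was used. Each deposited signal per gene and library is a read count the authors divided by 1 size factor per library: 100% of values are whole multiples of the library's smallest step (0.777 to 1.35) within 0.01 reads. The authors' log2 fold changes and p-values, deposited beside them, served as an alternative. A floor of 3 reads corresponds to 2.33 to 4.04 normalized counts, for counting error alone. The columns headed BMDM carry no genotype and were assigned to wild type, the only remaining group.

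The main test was limma 3.58.1 (R 4.3.3, trended prior) on log2(normalized count + 1) over 13977 genes with a mean of at least 10, fitted on the whole table. A log2 change on that scale understates the change of low genes. Alternatives were other pseudocounts, filters and thresholds, limma with no trend, edgeR 4.0.16 and DESeq2 1.42.0 on recovered reads, leaving out libraries, and the replicate number as a block; limma-voom was added after seeing the data. On recovered reads edgeR called 1580 genes higher and 1389 lower. The fit was tested on simulated data with changes larger than most of those reported here. In that simulation the fit kept false calls low and missed many of the smaller changes. Every gene was given the same added spread between libraries, which was not estimated from these data. Neither rate therefore needs to hold for the real libraries. The required correlation with the true changes was limited to genes of higher counts after low-count genes failed it. No library was a copy of another in its group (chi-square 6.08 to 29 per degree of freedom).

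Positions, lengths (the longest basic protein-coding transcript) and copies came from GENCODE M21; promoter sequences came from RefSeq (GRCm38.p6). With blastn 2.17.0, 18 of the 59 genes had another annotated gene at 95% identity or more over at least 200 bases, among them 6 of the 15 called (Eef1a1, Eef1b2, Eef1g, Eef2, Eif3e and Eif3h), whose reads may be shared with pseudogenes and whose values are uncertain to that extent. A further limit is that 11 genes share at least 5% of their exonic bases with another gene, and without strand these reads cannot be told apart. The genes, lists and tests were chosen with earlier results of these data known. Every gene of the set is accounted for, values per library are given for called genes and for those a paragraph turns on, and in the other lists the 4 called genes of smallest p were named; Larp4 and Mtor were added after their values were seen. The TOP set, the ribosomal protein list, the motifs with the definition of a pyrimidine run, and the transcript used for length were also chosen after values were seen.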

Additional observations from a re-analysis of the deposited data

How the results depend on the processing

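All 18 alternative settings gave the median log2 change of the 59 genes below 0 (-0.07 to -0.049), against -0.064 as reported. The count of genes called lower was 13, and 4 with limma with no trend in the prior, where the count called higher went from 2 to 0. Over all tested genes that setting called 602 lower and 923 higher, against 1394 and 1607 in the main fit. Leaving out each library in turn gave 10 to 14 lower and 2 to 3 higher. At an adjusted p under 0.01, 9 were lower and 2 higher. Whether the replicate numbers pair the libraries is not stated. The deviations of same-numbered libraries from their group means correlated at -0.268, 0.137 and -0.328 across genes. Wild-type replicate 1 correlated best with the library labelled Txn1 KO 3 (0.432). Deviations were centred within groups of 3, so a pattern shared by these 2 libraries also lowers other correlations, and the values cannot decide on pairing. With the replicate number as a block 12 genes were lower and 2 higher, and Eif3c was lost (adjusted p = 0.0855). Depth did not limit most genes: 57 of the 59 had a mean over 100 normalized counts. Among those of the 57 that were not called, the 95% interval of the log2 change extended at most 0.22 to either side of the estimate, so changes of a smaller size may have gone undetected.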
